A study of Arabidopsis thaliana with 43 samples.

Results

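The transcript levels of 8 regulators of seed maturation were followed through embryo development in Arabidopsis thaliana. They are the 5 LAFL activators, namely LEC1 (AT1G21970), L1L, also called NF-YB6 (AT5G47670), LEC2 (AT1G28300), FUS3 (AT3G26790) and ABI3 (AT3G24650), and the 3 repressors VAL1 (AT2G30470), VAL2 (AT4G32010) and VAL3 (AT4G21550). They were chosen by locus, 8 of the 32507 loci in the tables, and the level of each is the sum over its annotated transcripts. All 8 passed the filter on low counts and were tested.

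LEC1 and L1L are closely related NF-YB proteins, the subunit of the NF-Y complex that pairs with an NF-YC partner before an NF-YA subunit joins and reads the CCAAT box. LEC2, FUS3 and ABI3 carry a B3 DNA-binding domain that reads the RY element, with the core CATGCA, found in many promoters of seed storage genes, often near a G-box (CACGTG) bound by bZIP partners. Together they switch on storage protein and oil synthesis, acquisition of desiccation tolerance and dormancy in the seed. The VAL proteins also carry a B3 domain that reads the RY element, but they recruit Polycomb complexes and histone deacetylases and shut the LAFL genes down at germination.

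All embryos were wild type of the ecotype Col-0, dissected from 4-week-old plants grown in a chamber with long days, and no mutant or treatment is part of the data. The 8 stages were preglobular (8-cell/16-cell), globular, early heart, late heart, early torpedo, late torpedo, bent cotyledon and mature green, each with 3 libraries and each collection holding 50 pooled embryos. Libraries followed the Smart-seq2 protocol, which amplifies full-length cDNA of polyadenylated RNA, and bent cotyledon stands here for the libraries made from 5 ng of RNA. The titles number 3 biological replicates at every stage, while at mature green the descriptions name each library the first, so the spread there may leave out the differences between collections. Bent-cotyledon RNA was further used at 1, 0.5 and 0.1 ng with Smart-seq2 in 3 libraries each, and with the Ovation and SMARTer kits in 1 library at each of 5, 1, 0.5, 0.1 and 0.05 ng.

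The 24 stage libraries held 8432892 to 35807605 estimated counts, at least 17769463 outside bent cotyledon. The 6 embryo markers summed to between 1181 and 4951 CPM (counts scaled to a common library total with TMM factors) in every stage library, and the 8 seed coat markers to between 18.3 and 52.2 CPM. WOX2, DRN, DRNL and STM averaged 86.6, 50.2, 11.5 and 0 CPM at preglobular and 0.31, 0.57, 0.73 and 7.25 CPM at bent cotyledon. Most of the embryo sum at both stages was thus ATML1 and PDF1. From preglobular to mature green 1 of the 6 rose and 5 fell, where 38.5% of all genes rose and 37.4% fell. MUM4 averaged 39.2 CPM at bent cotyledon and 32.7 CPM at mature green, most of the seed coat sum there. The 10 endosperm markers summed to 20.6 to 64.4 CPM through late heart, 41.4 to 225.7 CPM at early torpedo, 98.6 to 194 CPM at late torpedo, 86.9 to 167 CPM at bent cotyledon and 184.8 to 233 CPM at mature green. Most of the endosperm sum at mature green was EPR1, at 200.2 CPM on average, while PHE1 had no count from late torpedo on. A pair of libraries stood apart from their stage. Early torpedo replicate 2 differed from replicates 1 and 3 by a chi-square per degree of freedom of 129 and 135.4, against 7.40 between those, and held the highest endosperm and embryo marker sums of its stage (225.7 and 2860 CPM) and the lowest seed coat sum (18.3 CPM). Mature green replicate 3 differed from the others by 86.0 and 87.8, against 19.2 between them, and held the highest endosperm and embryo marker sums of its stage (233 and 2102 CPM) and the lowest seed coat sum (25.6 CPM). Values without 1 of these libraries are given beside results below, and each names the library left out.

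The windows of 250 bases before the annotated gene starts show which of the letters read by these factors lie next to the members themselves. They were read from the RefSeq genome and annotation of TAIR10.1, 5′ to 3′ on the strand of the gene. LEC1 is shown for its CCAAT matches, FUS3 and VAL1 as the members with RY matches, and the oleosin gene OLEO1 (AT4G25140), an oil body protein, as a storage gene for comparison. Capitals mark CCAAT in LEC1 and the RY core CATGCA, or TGCATG on the other strand, in the other windows.

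LEC1, chr1:7729650-7729899, minus strand: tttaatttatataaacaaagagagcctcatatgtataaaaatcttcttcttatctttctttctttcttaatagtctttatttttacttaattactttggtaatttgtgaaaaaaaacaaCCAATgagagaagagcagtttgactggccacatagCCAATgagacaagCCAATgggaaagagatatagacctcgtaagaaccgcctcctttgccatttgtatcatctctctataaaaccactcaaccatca
FUS3, chr3:9856213-9856462, minus strand: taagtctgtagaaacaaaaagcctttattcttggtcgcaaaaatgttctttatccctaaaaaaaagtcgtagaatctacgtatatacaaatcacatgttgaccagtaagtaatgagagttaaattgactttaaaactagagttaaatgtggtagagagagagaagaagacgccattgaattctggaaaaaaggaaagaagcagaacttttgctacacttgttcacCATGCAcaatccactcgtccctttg
VAL1, chr2:12985278-12985527, minus strand: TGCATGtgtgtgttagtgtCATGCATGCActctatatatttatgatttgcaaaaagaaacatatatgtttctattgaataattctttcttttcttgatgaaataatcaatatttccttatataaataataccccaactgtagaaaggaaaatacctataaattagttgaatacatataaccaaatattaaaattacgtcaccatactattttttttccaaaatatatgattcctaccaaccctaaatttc
OLEO1, chr4:12900180-12900429, plus strand: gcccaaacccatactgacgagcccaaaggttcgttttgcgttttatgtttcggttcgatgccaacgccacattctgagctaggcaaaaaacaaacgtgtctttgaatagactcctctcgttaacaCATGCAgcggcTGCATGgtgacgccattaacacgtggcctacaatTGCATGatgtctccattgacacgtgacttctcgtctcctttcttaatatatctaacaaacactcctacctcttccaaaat

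The LEC1 window held CCAAT at 131, 96 and 83 bases before the start, and it was the member with that match, 1 of 8, while 46% of the windows of 27443 protein-coding genes held 1 or more. The FUS3 window held 1 RY core, 25 bases before the start. The VAL1 window held 4 RY matches at its far end, 1 at 250 bases and 3 that overlap each other at 231, 229 and 227 bases. An RY core was thus present in 2 of 8 members and in 8.43% of all windows, against 12 of 15 genes of a list of storage and oil body genes. The OLEO1 window held RY cores at 125, 114 and 80 bases and a G-box (CACGTG, not in capitals) at 95 and 61 bases. A G-box was found in 0 of 8 members, in 6.49% of all windows and in 8 of the 15 storage and oil body genes. The windows of L1L and VAL2 overlap another annotated gene, while those of the storage and oil body genes do not. Both strands were searched and overlapping matches counted apart. A match is a description of letters, and a window without one says nothing about binding elsewhere in the gene.

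All 8 genes were called as varying over the stages (edgeR, F test over the 8 stages, adjusted p under 0.05), as were 91.1% of all genes tested. The adjusted p was lowest for LEC1, at 3.32e-16, and highest for VAL2, at 0.0376. The VAL2 call was lost in 13 of 33 other settings, 10 of which left out 1 library, with adjusted p up to 0.0886. The course of each gene is described first on the CPM scale, and levels are compared between genes in TPM, which also divides by transcript length.

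**Figure D1:**
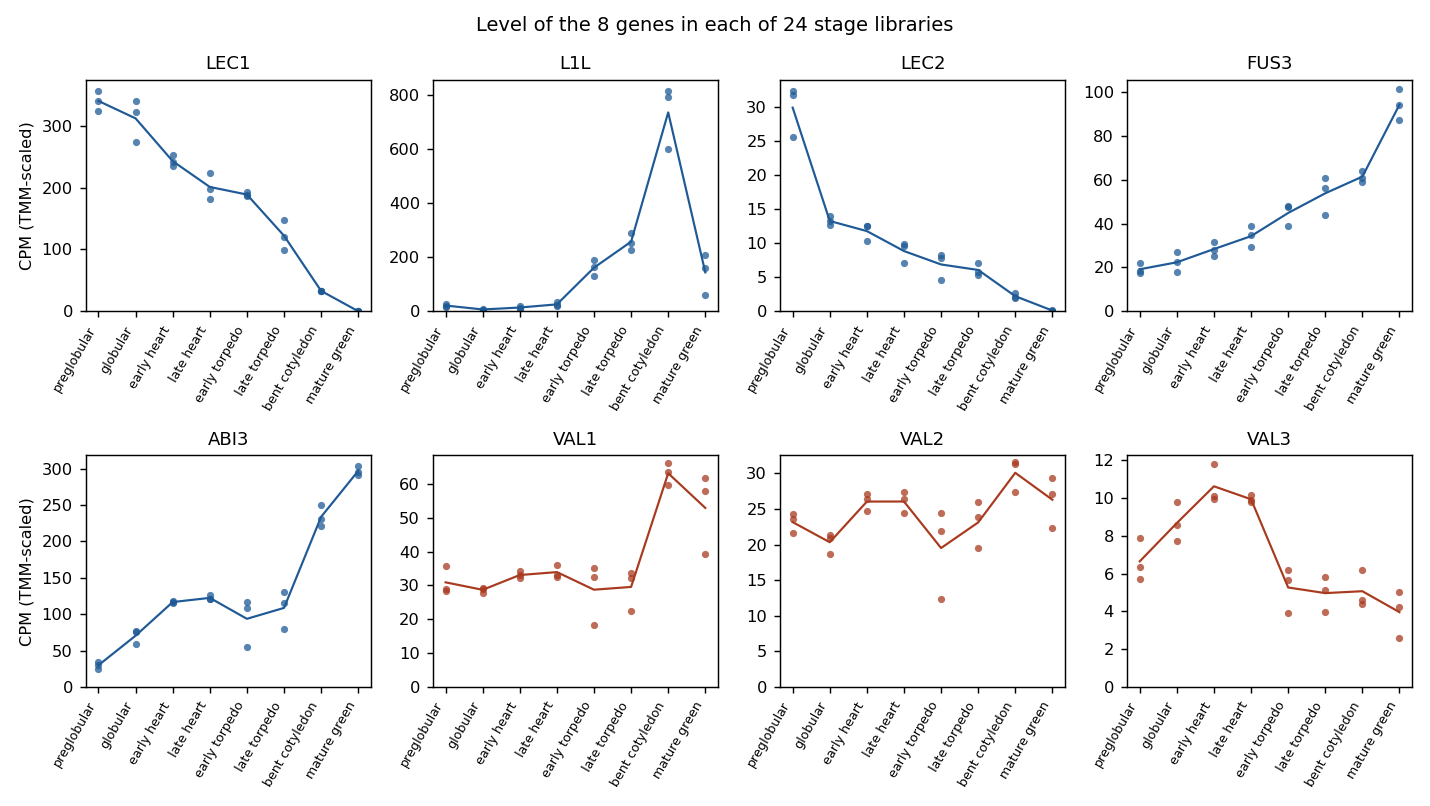
Level of each of the 8 genes in CPM at the 8 stages, 1 panel per gene with an axis of its own from 0, 1 point per library and a line through the means of 3. LEC1 and LEC2 end near 0 at mature green, FUS3 and ABI3 end at their highest means of 94.3 and 297 CPM, and the stage means of VAL2 lie between 19.5 and 30.1 CPM.

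LEC1 (RefSeq TAIR10.1, chr1:7727577-7729649, minus strand) encodes the NF-YB subunit whose loss lets embryos leave the maturation programme early. It was measured at 324, 339.8 and 357 CPM in the 3 preglobular libraries and at 339.7, 273.5 and 323 CPM in the globular ones. Early heart libraries gave 252.5, 235 and 241 CPM, and late heart libraries 182, 197 and 224 CPM. The groups overlap between preglobular and globular, and from there each early stage lies below the one before. From preglobular to late heart LEC1 fell by 0.76 ± 0.16 on the log2 scale (SE, 1.69-fold, edgeR adjusted p = 0.000508). On log2(TPM + 1) the same span gave −0.04 and LEC1 was not called (limma adjusted p = 0.797). The median of all genes tested moved by 0.52 on that scale, so LEC1 was at −0.56 relative to the median gene. That reference, here and below, depends on the value added before the logarithm. On log2(TPM + 0.1) the median moved by 0.72 and LEC1 by −0.04.

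The later decline was steeper. LEC1 stood at 186, 188 and 193 CPM at early torpedo, 121, 147 and 98.7 CPM at late torpedo, and 32.9, 33.0 and 33.0 CPM at bent cotyledon. No late torpedo library reaches an early torpedo one, and the bent cotyledon libraries lie below all of them. The step to late torpedo had a log2 change of −0.63 and was not called (edgeR adjusted p = 0.0656), though without early torpedo replicate 2 it was called at a log2 change of −0.63 (adjusted p = 0.0343), and without late torpedo replicate 2 at −0.78 (adjusted p = 0.0411). The step to bent cotyledon was a fall of 3.71-fold (log2 −1.89 ± 0.17, SE, edgeR adjusted p = 9.35e-08). In tissue-level RNA, fewer cells with a transcript and less of it per cell cannot be told apart, here and in all comparisons that follow.

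At mature green LEC1 was almost gone, with 0, 4 and 1 counts in the 3 libraries. The first of these allows a level of up to 0.237 CPM, which is what 3 counts would give there. Pooled over 3 libraries each, the level at bent cotyledon was 249 times that at mature green (95% interval 106 to 769, from 968 and 5 counts). From preglobular the ratio was 2571 (95% interval 1101 to 7918). The intervals cover counting error only, since amplified reads are not independent molecules. Both falls were called (edgeR adjusted p = 8.05e-14 and 9.98e-17).

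L1L (chr5:19314778-19316169, plus strand) encodes the NF-YB protein most like LEC1, and it followed another course than LEC1. It was measured at 15.7, 28.1 and 20.1 CPM at preglobular and at 6.40, 5.86 and 8.04 CPM at globular. No globular library reached a preglobular one, and the fall was 3.17-fold (log2 −1.66 ± 0.37, SE, edgeR adjusted p = 0.0025). Early heart libraries gave 8.07, 12.3 and 21.4 CPM, and late heart libraries 20.5, 23.3 and 33.1 CPM. These spread widely, and neither step was called (edgeR adjusted p = 0.0522 and 0.259).

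The large gain came next. L1L was at 131.5, 188 and 164.5 CPM at early torpedo, 6.30-fold above late heart (log2 2.66 ± 0.37, SE, edgeR adjusted p = 0.000117). Without early torpedo replicate 2, the highest of the 3, the change was 2.53 (adjusted p = 0.000512). Late torpedo libraries gave 291, 228 and 254 CPM and bent cotyledon libraries 792, 817 and 600.2 CPM. All bent cotyledon values lie above all others of the series, and the rise was 2.86-fold (log2 1.51 ± 0.35, SE, edgeR adjusted p = 0.00217). The endosperm markers summed to 36.2 to 64.4 CPM at late heart and 86.9 to 167 CPM at bent cotyledon, but single markers went both ways. Of the 8 tested, EPR1, AGL62 and SUC5 rose and ZOU and ALE1 fell, where 22.0% of all genes rose and 23.2% fell, with a median log2 change of −1.22, or 0.16 with the gene without a count at its bound. Their part in the L1L level was not tested. From late heart to bent cotyledon the L1L rise came to 28.7-fold (log2 4.84 ± 0.40, SE, adjusted p = 1.08e-08).

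At mature green L1L was at 209.9, 161 and 60.8 CPM. The lowest of these is replicate 3, the library that stands apart, and all 3 lie below bent cotyledon and above late heart. The fall from bent cotyledon was 5.11-fold (log2 −2.35 ± 0.36, SE, edgeR adjusted p = 1.11e-05), and −1.98 on the log2 scale without mature green replicate 3 (adjusted p = 4.55e-05). Against preglobular, L1L ended 6.75-fold higher (log2 2.76 ± 0.37, SE, adjusted p = 8.72e-07) or 3.095 on the log2 scale without that library.

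The transcripts of L1L shifted at the last stage. The tables hold 3 transcripts, of which the spliced form of 3 exons (AT5G47670.1, 1053 bases) made up 84.4% to 92.3% of L1L TPM on average at the stages before mature green. At mature green it made up 68.5% (range 64.0% to 71.9% over 3 libraries). The single-exon form (AT5G47670.2, 1087 bases) made up 27.7% there (25.5% to 30.1%), against stage means of 1.74% to 3.76% and no library above 6.19% before. The groups do not overlap. Without mature green replicate 3 the means were 67.9% and 27.8%. In TPM the single-exon form was at 16.4, 26.6 and 18.7 at bent cotyledon and at 30.3, 25.01 and 8.18 at mature green, groups that overlap, while the spliced form went from a mean of 603 to 53.1, or to 69.2 without replicate 3. The transcript model overlaps its neighbours AT5G47660 and TRM10 by 116 and 124 bases, and 180 of 1416 words of 31 bases in L1L are shared with them. Those neighbours were at 12.5 and 27.6 CPM at bent cotyledon and 11.4 and 22.3 CPM at mature green, and strand is not given in the sources used here, so some reads may be theirs. Their part in the single-exon share was not tested.

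Set beside each other per length, the NF-YB pair exchanged places between late heart and bent cotyledon. LEC1 made up 94.7% ± 1.42 (SD, n = 3) of the summed TPM of both at preglobular and 89.8% ± 1.33 at late heart. It made up 56.6% ± 4.24 at early torpedo, 34.4% ± 6.47 at late torpedo, 4.79% ± 0.81 at bent cotyledon and 0.121% ± 0.11 at mature green. Without early torpedo replicate 2 the share was 58.6% there, and without mature green replicate 3 it was 0.105%. At early torpedo the libraries gave 60.9%, 52.4% and 56.4%, and at late torpedo 31.4%, 41.8% and 29.98%, so the order of the 2 genes turned over between these stages in all libraries. Their sum was steadier than either gene, at 305 to 384 TPM on average over the first 6 stages. It reached 686 ± 59.5 TPM at bent cotyledon and was 77.2 ± 44.6 TPM at mature green, where the libraries held 118.5, 83.3 and 29.9 TPM, with a mean of 100.9 TPM without replicate 3.

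**Figure D2:**
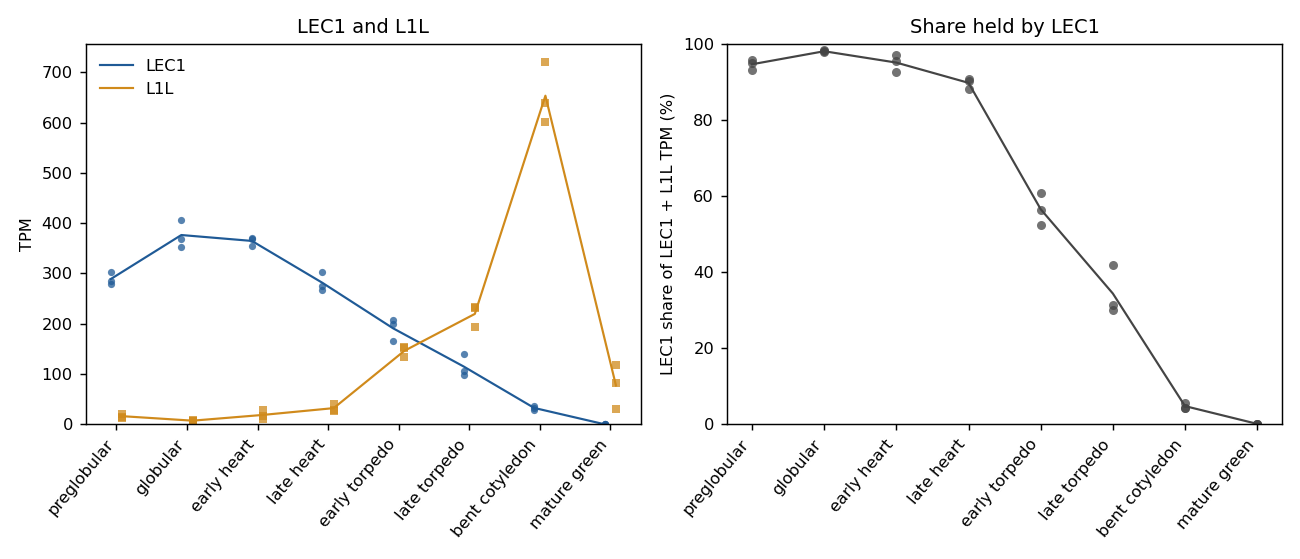
LEC1 and L1L in TPM by library at the 8 stages, and LEC1 as a percentage of the sum of both, with lines through the means of 3 libraries. The percentage lies above 88% in every library through late heart and below 6% in every library from bent cotyledon on.

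LEC2 (chr1:9896867-9899876, minus strand), the B3 factor that can start embryo formation when placed in leaves, was highest at the start. The preglobular libraries gave 25.7, 32.5 and 31.8 CPM and the globular ones 13.3, 14.0 and 12.6 CPM. The groups do not overlap, and LEC2 fell by 2.25-fold (log2 −1.17 ± 0.19, SE, edgeR adjusted p = 0.000141). It was at 12.5, 10.4 and 12.6 CPM at early heart, at 7.07, 9.66 and 9.87 CPM at late heart, and between 4.62 and 8.28 CPM in all 6 torpedo libraries. No step among these was called by edgeR. On log2(TPM + 1) limma called LEC2 lower from late heart to early torpedo (−0.74, adjusted p = 0.0036), or −0.42 relative to the median gene. Early torpedo replicate 2, the library that stands apart, was part of that fit, and limma was not run without it.

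At bent cotyledon LEC2 was at 2.63, 2.05 and 1.98 CPM, below every earlier library. The fall from late torpedo was 2.76-fold (log2 −1.47 ± 0.23, SE, edgeR adjusted p = 5.36e-05). With the 1 ng libraries in place of 5 ng it was −0.59 and not called (adjusted p = 0.0643). At mature green 2, 1 and 1 counts remained. The pooled ratio of bent cotyledon to mature green was 20.6 (95% counting interval 7.66 to 77.9, from 64 and 4 counts), and that of preglobular to mature green 283 (110 to 1041). Both falls were called (edgeR adjusted p = 2.15e-08 and 1.70e-14).

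FUS3 (chr3:9853828-9856212, minus strand), a B3 factor that balances abscisic acid against gibberellin, rose over the series. It was at 18.4, 21.8 and 17.3 CPM at preglobular and at 22.5, 26.9 and 17.8 CPM at globular. Early heart libraries gave 25.4, 28.2 and 31.7 CPM, and late heart libraries 29.2, 34.6 and 39.1 CPM. Neighbouring stages overlap up to bent cotyledon, and edgeR called no single step among them on the CPM scale. DESeq2 called the step from late heart to early torpedo (0.41, adjusted p = 0.0441), and edgeR called the step from globular to early heart without globular replicate 2 (0.50, adjusted p = 0.0485). In TPM the means were 9.55 at preglobular, 15.96 at globular, 24.97 at early heart and 27.98 at late heart, then 26.8 and 29.98 at the torpedo stages. On log2(TPM + 1) limma called the first step (0.67, adjusted p = 0.00887) and the second (0.64, adjusted p = 0.0202), which relative to the median gene are 0.32 and 0.39. Over the longer span from preglobular to late heart FUS3 rose 1.79-fold (log2 0.84 ± 0.16, SE, edgeR adjusted p = 0.000135).

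Torpedo libraries held 38.7 to 61.1 CPM of FUS3, and bent cotyledon libraries 59.2, 61.0 and 64.2 CPM. From late heart to bent cotyledon it rose again by 1.79-fold (log2 0.84 ± 0.16, SE, edgeR adjusted p = 0.00017). The same span on log2(TPM + 1) gave 0.32 and no call. The median gene moved by −0.385 on that scale, so FUS3 lay 0.71 above the median gene. The mature green libraries, at 94.0, 87.5 and 101.5 CPM, were the highest of the series, 1.53-fold above bent cotyledon (log2 0.62 ± 0.16, SE, edgeR adjusted p = 0.00199). On log2(TPM + 1) the sign of that last step turned, to −0.13, where the median gene had moved by −0.44, so that FUS3 lay 0.31 above the median gene. On log2(TPM + 0.1) FUS3 was also at −0.13, and the median gene had moved by −0.65.

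ABI3 (chr3:8997370-9001185, plus strand), the B3 factor that carries the response of the seed to abscisic acid, had the fastest early gain of the LAFL genes. It was at 34.5, 30.9 and 24.5 CPM at preglobular, at 76.4, 76.1 and 59.2 CPM at globular and at 114.8, 118 and 117 CPM at early heart. The 3 groups are wholly separate. The first step was a rise of 2.36-fold (log2 1.24 ± 0.21, SE, edgeR adjusted p = 0.000231) and the second of 1.65-fold (log2 0.73 ± 0.21, SE, adjusted p = 0.0187). The second call was lost when globular replicate 3, early heart replicate 2 or early heart replicate 3 was left out, with adjusted p between 0.0571 and 0.0919 and a change of 0.62 to 0.73.

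ABI3 was then at 120.3, 126.5 and 121 CPM at late heart, 117, 55.3 and 109 CPM at early torpedo, and 79.9, 130.1 and 116 CPM at late torpedo. The value of 55.3 CPM belongs to early torpedo replicate 2, the library that stands apart. With it the step from late heart was −0.39 on the log2 scale and without it −0.12, and neither was called by edgeR. On log2(TPM + 1), with all libraries, limma called ABI3 lower at that step (−0.90, adjusted p = 0.00908), or −0.59 relative to the median gene. ABI3 reached 230.3, 250.5 and 221 CPM at bent cotyledon, a second rise of 2.15-fold (log2 1.105 ± 0.21, SE, edgeR adjusted p = 0.000342). Mature green libraries gave 292, 295 and 304 CPM, above all bent cotyledon libraries, yet that step was not called (log2 0.34, adjusted p = 0.164), and on log2(TPM + 1) it was −0.38, or 0.05 relative to the median gene. The median gene moved by −0.44 on that scale and by −0.65 on log2(TPM + 0.1). From end to end ABI3 rose 9.92-fold (log2 3.31 ± 0.22, SE, edgeR adjusted p = 2.35e-11) and FUS3 4.92-fold (log2 2.30 ± 0.16, SE, adjusted p = 4.57e-11).

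Among the LAFL B3 genes the mean share of LEC2 was lower at each stage than at the one before. It made up 51.8% ± 4.99 of the summed TPM of LEC2, FUS3 and ABI3 at preglobular (SD, n = 3), 22.2% ± 2.08 at globular, 10.2% ± 1.15 at late heart, 1.51% ± 0.27 at bent cotyledon and 0.0533% ± 0.02 at mature green, or 0.0599% there without replicate 3. ABI3 went from 21.3% ± 4.08 at preglobular to 57.9% ± 2.03 at early heart and 64.6% ± 2.00 at bent cotyledon. FUS3 was above ABI3 in all 3 preglobular libraries, at 27.3%, 28.2% and 25.2% against 25.8%, 20.1% and 17.9%, in early torpedo replicate 2, at 53.6% against 38.6%, and in late torpedo replicates 1 and 3. Without early torpedo replicate 2 the means of that stage were 41.8% for FUS3 and 49.6% for ABI3.

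VAL1 (chr2:12980428-12985277, minus strand), a B3 repressor that silences the LAFL genes in seedlings and also acts on FLC, was similar in CPM through the first 6 stages and higher in the last 2. Its preglobular libraries gave 28.8, 28.3 and 35.6 CPM, and all but 2 libraries from globular to late torpedo lay between 27.9 and 36.2 CPM. The exceptions were early torpedo replicate 2 at 18.4 CPM and late torpedo replicate 1 at 22.6 CPM. At bent cotyledon VAL1 was at 66.0, 59.7 and 63.6 CPM, above every earlier library, a rise of 2.13-fold (log2 1.09 ± 0.20, SE, edgeR adjusted p = 0.000234). Mature green libraries gave 61.7, 57.7 and 39.2 CPM, the lowest in replicate 3. Against preglobular VAL1 ended 1.71-fold higher (log2 0.78 ± 0.20, SE, edgeR adjusted p = 0.00127), and 0.93 on the log2 scale without that replicate. On log2(TPM + 1) this end-to-end change was 0.20 and was not called. The TPM course differed, with means of 7.03 at preglobular, 13.4 at early heart, 7.56 at late torpedo, 16.5 at bent cotyledon and 8.39 at mature green. There limma called VAL1 from preglobular to late heart (0.78, adjusted p = 0.00508), from late heart to early torpedo (−0.68, adjusted p = 0.0204) and from bent cotyledon to mature green (−0.93, adjusted p = 0.00122), which relative to the median gene are 0.26, −0.36 and −0.49. Early torpedo replicate 2 and mature green replicate 3 were part of that fit, and limma was not run without them.

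VAL2 (chr4:15479379-15485354, plus strand), which acts redundantly with VAL1, was called at no step on the CPM scale. Its libraries ran from 21.6, 24.3 and 23.6 CPM at preglobular through 27.4, 31.3 and 31.6 CPM at bent cotyledon to 27.1, 22.4 and 29.3 CPM at mature green. The lowest library of the series was early torpedo replicate 2, at 12.3 CPM. End to end the log2 change was 0.18 ± 0.18 (SE) and was not called (edgeR adjusted p = 0.351), and no step was called. With only the groups compared in the edgeR fit it was called from globular to early heart (0.35, adjusted p = 0.0304) and from late torpedo to bent cotyledon (0.43, adjusted p = 0.0325), and without early torpedo replicate 3 from late heart to early torpedo (−0.61, adjusted p = 0.0313). In TPM VAL2 went from 5.22 at preglobular to 10.4 at early heart and 4.12 at mature green. The limma fit on TPM kept all libraries, early torpedo replicate 2 included, and was not run without that library. On log2(TPM + 1) limma called VAL2 from globular to early heart (0.60, adjusted p = 0.0339), from late heart to early torpedo (−0.80, adjusted p = 0.00475) and from bent cotyledon to mature green (−0.77, adjusted p = 0.00247), which relative to the median gene are 0.36, −0.48 and −0.33. Its 2 transcripts shared the level almost evenly at preglobular, where AT4G32010.1 made up 51.8% of VAL2 TPM on average, and at mature green that share was 43.8% with libraries from 26.9% to 55.7%.

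VAL3 (chr4:11462969-11468679, plus strand), the least studied of the 3, was low throughout and highest at the heart stages. It was at 7.89, 5.70 and 6.37 CPM at preglobular, at 9.77, 8.56 and 7.71 CPM at globular, at 10.1, 9.95 and 11.8 CPM at early heart and at 10.2, 9.77 and 9.90 CPM at late heart. The heart libraries lie above all preglobular ones. The rise from preglobular to late heart was 1.49-fold (log2 0.58 ± 0.22, SE, edgeR adjusted p = 0.0308), and was lost under either other filter, with RLE size factors and without any of 5 of the 6 libraries compared, with adjusted p up to 0.137.

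At early torpedo VAL3 was at 5.69, 3.94 and 6.18 CPM, a fall of 1.88-fold (log2 −0.91 ± 0.22, SE, edgeR adjusted p = 0.00812). Without replicate 2 of that stage the change was −0.74 (adjusted p = 0.0473). From there to mature green every library lay between 2.59 and 6.195 CPM. Against preglobular the mature green libraries, at 5.05, 2.59 and 4.25 CPM, were 1.68-fold lower (log2 −0.75 ± 0.23, SE, edgeR adjusted p = 0.00637), and without mature green replicate 2 the change was −0.51 and no longer called (adjusted p = 0.0503). From late heart to bent cotyledon VAL1 rose by 0.90 and VAL3 fell by 0.96 (log2, edgeR adjusted p = 0.000827 and 0.0018). The VAL1 call was lost on log2(TPM + 1), at 0.35, or 0.73 relative to the median gene. The VAL3 call was lost with the 1 ng libraries (−0.43). Of its 3 transcripts AT4G21550.2 made up most of VAL3 TPM, 69.8% on average at preglobular and 76.5% at mature green, where single libraries ran from 51.1% to 91.1%. LEC1, LEC2, FUS3, ABI3 and VAL1 have 1 transcript each in the tables.

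Per length the VAL genes kept the order VAL1, VAL2, VAL3 by mean at every stage. VAL1 made up 48.6% ± 3.13 of their summed TPM at preglobular, 44.5% ± 0.81 at early heart, 63.2% ± 2.99 at bent cotyledon and 61.8% ± 8.68 at mature green (SD, n = 3), or 66.7% there without replicate 3. VAL3 made up 20.8% ± 1.59 at early heart and 7.37% ± 1.21 at bent cotyledon. The summed VAL level was 14.5 ± 0.94 TPM at preglobular, 30.01 ± 1.15 TPM at early heart, 15.3 ± 3.38 TPM at late torpedo, 26.3 ± 3.501 TPM at bent cotyledon and 13.4 ± 2.57 TPM at mature green, or 14.6 TPM there without replicate 3. It was at 8.66 TPM in early torpedo replicate 2, against 19.7 and 18.3 TPM in the other replicates of that stage.

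The LAFL B3 genes stood higher against the VAL genes late in the series. The ratio of their summed TPM, in which the scaling of a library cancels, was 2.45 ± 0.30 at preglobular and 2.63 ± 0.27 at globular, with libraries of 2.38, 2.78 and 2.19 and of 2.67, 2.86 and 2.34. It was 2.98 ± 0.07 at early heart, 3.15 ± 0.29 at late heart, 3.98 ± 0.31 at early torpedo, 4.23 ± 0.07 at late torpedo and 3.98 ± 0.25 at bent cotyledon. At mature green it was 6.33 ± 0.97, with libraries of 5.48, 6.13 and 7.38, and 5.80 without replicate 3. Every torpedo and later library lies above every library through late heart, and every mature green library above all others. From bent cotyledon to mature green the mean TPM of LEC2, FUS3 and ABI3 went from 1.56, 35.4 and 67.2 to 0.05, 32.1 and 51.1. Over the same step VAL1, VAL2 and VAL3 went from 16.5, 7.75 and 1.96 to 8.39, 4.12 and 0.91. Both sums were thus lower at mature green, where the ratio was higher. LEC1 and L1L are not part of this ratio, and their own sum was lowest at mature green, with a mean of 77.25 TPM. The members were chosen with results of these data known, so no p is given for this ratio of sums. Early torpedo replicate 2 gave 4.33, against 3.91 and 3.72 in the other libraries of that stage, whose mean was 3.81, although its B3 and VAL sums were both the lowest there.

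**Figure D3:**
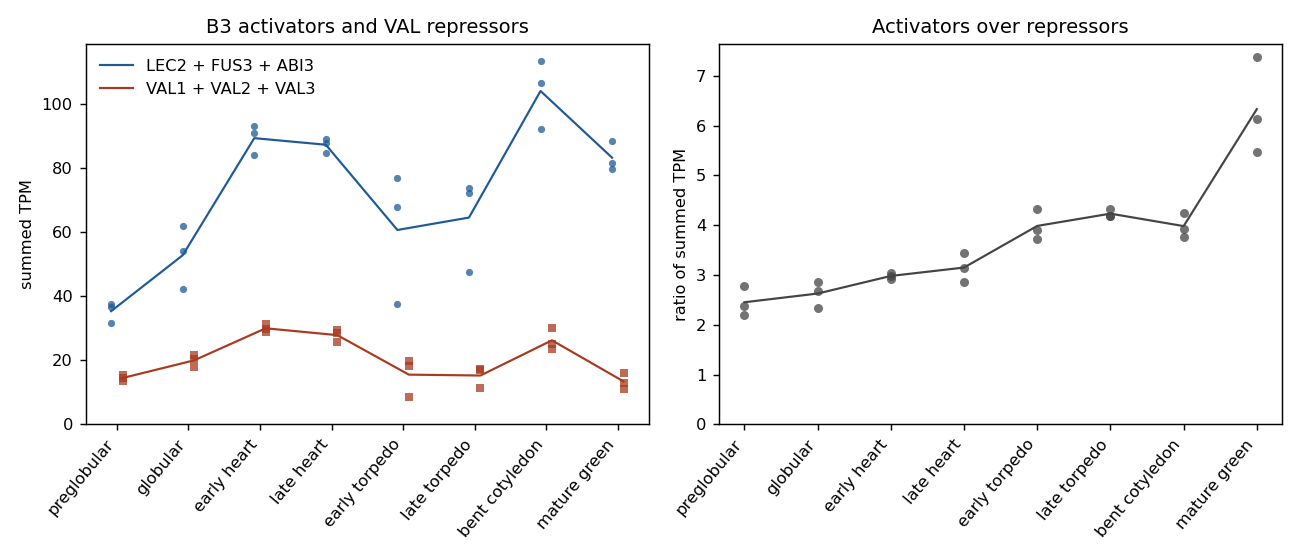
Summed TPM of LEC2, FUS3 and ABI3, summed TPM of VAL1, VAL2 and VAL3, and the ratio of the first to the second, by library at the 8 stages, with lines through the means of 3. The ratio goes from 2.19 to 2.86 in the preglobular and globular libraries to 5.48 to 7.38 at mature green.

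Counts of members called can be read beside the share of all genes called in the same comparison. From preglobular to globular 3 of 8 were called, ABI3 higher and L1L and LEC2 lower, where 23.6% of all genes were called, 11.4% higher and 12.2% lower. From globular to early heart 1 was called, ABI3, higher, where 17.6% of all genes were called, 8.57% higher and 9.03% lower. From early heart to late heart 0 of 8 were called by edgeR and by DESeq2, with 2 at an unadjusted p under 0.05, and 2.45% of all genes were called, 1.22% higher and 1.23% lower. At the step into early torpedo 2 of 8 were called, L1L higher and VAL3 lower, with 19.0% of all genes, 13.3% higher and 5.76% lower. From early to late torpedo 0 were called by edgeR, 1 at an unadjusted p under 0.05 and 1 by DESeq2, LEC1 in that case. Of all genes 1.13% were called at that step, 0.666% higher and 0.466% lower.

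The last 2 steps had the highest counts. From late torpedo to bent cotyledon 5 of 8 were called, L1L, ABI3 and VAL1 higher and LEC1 and LEC2 lower, where 33.3% of all genes were called, 13.7% higher and 19.7% lower. From bent cotyledon to mature green 4 of 8 were called, FUS3 higher and LEC1, L1L and LEC2 lower, against 55.4% of all genes, 27.2% higher and 28.2% lower. From preglobular to late heart 5 of 8 were called, 3 higher and 2 lower, with 53.3% of all genes, 27.5% higher and 25.8% lower. From late heart to bent cotyledon 7 of 8 were called, 4 higher and 3 lower, with 45.2% of all genes, 22.0% higher and 23.2% lower. From preglobular to mature green 7 of 8 were called, 4 higher and 3 lower, with 75.9% of all genes, 38.5% higher and 37.4% lower. At several of these comparisons the share of members called is near that of all genes, and nothing is read from it. On log2(TPM + 1) LEC1 turned from −0.12 to 0.38 at the first step, where the median gene had moved by 0.35, so its shift relative to the median gene was 0.03.

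**Figure D4:**
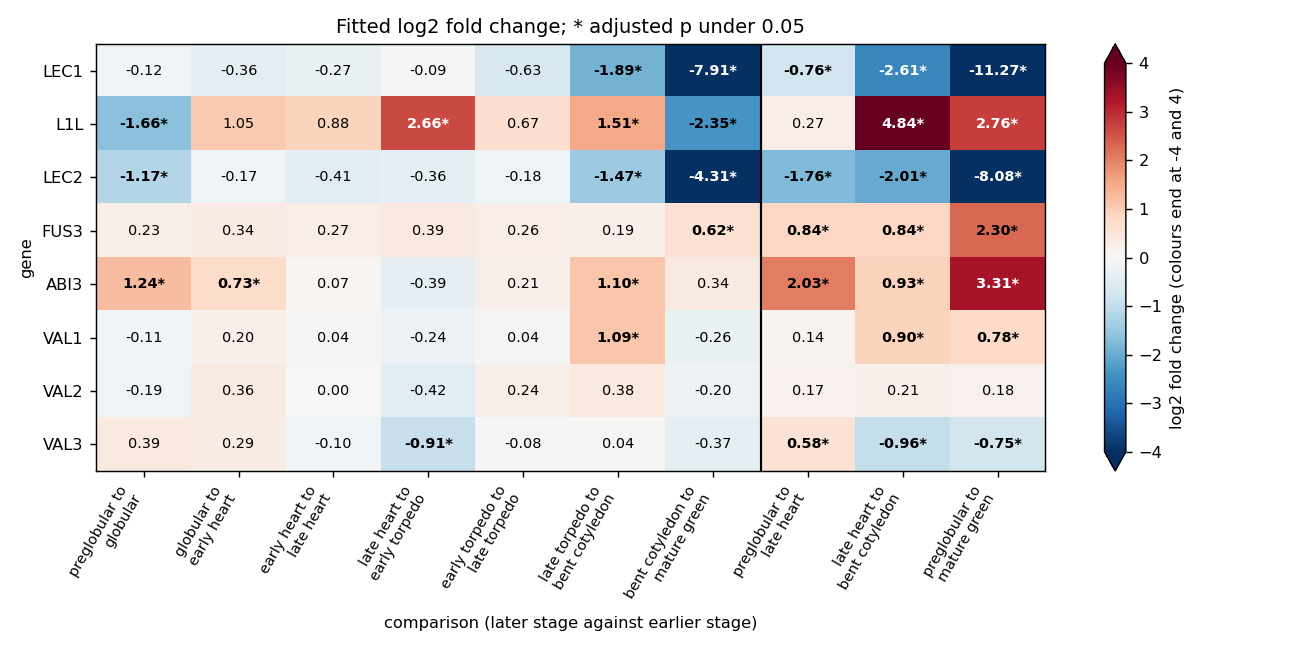
Log2 fold change of each of the 8 genes at the 7 steps between neighbouring stages and over 3 longer spans, from edgeR, as a colour and a number, with called changes starred. L1L has 2.66 at late heart to early torpedo and 1.51 at late torpedo to bent cotyledon, and LEC1 has −1.89 at the latter and −7.91 at the last step.

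Compared per length, the leading gene of the 8 changed once. LEC1 had the highest TPM at the first 5 stages, without overlap with the next gene, from 288.8 ± 12.4 TPM at preglobular (SD, n = 3) against 18.2 ± 1.15 TPM for LEC2 to 191 ± 22.0 TPM at early torpedo against 146 ± 10.99 TPM for L1L. L1L led at late torpedo with 219.5 ± 22.0 TPM and at bent cotyledon with 653 ± 60.9 TPM, where ABI3 came next at 67.2 ± 6.26 TPM. At mature green L1L had 77.2 ± 44.6 TPM and overlapped with ABI3 at 51.1 ± 2.503 TPM, which lay above FUS3 at 32.1 ± 2.47 TPM without overlap. The second rank passed from LEC2 at preglobular to ABI3 at globular, where it overlapped with FUS3. Below these, neighbours often could not be separated, as ABI3 and FUS3 at early and late torpedo, VAL1 and VAL2 at the same stages, and LEC1 and LEC2 at mature green. The stage with the highest mean was the same on both scales for 4 of the 8 genes, L1L, LEC2, VAL1 and VAL3. LEC1 peaked at preglobular in CPM and at globular in TPM, FUS3 and ABI3 at mature green in CPM and at bent cotyledon in TPM, and VAL2 at bent cotyledon in CPM and at early heart in TPM.

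The genes these factors act with or on were taken as lists. Of 15 storage protein and oil body genes, 14 were tested, and 14 rose and 0 fell from preglobular to mature green. Their median log2 change was 16.9, with genes without a count at their bound, beside 0.05 for all genes tested. At the first step, from preglobular to globular, 3 of them fell and 0 rose, where 12.2% of all genes fell and 11.4% rose, and 7 had no count in at least 1 of those groups. CRB and CRC, both 12S globulins, had 1 and 2 counts at preglobular and 84230 and 88070 CPM at mature green, CRA1, also a 12S globulin, 3 counts and 56700 CPM, and SESA1, a 2S albumin, 0 counts and 11190 CPM. SESA1 is 1 of 5 related albumin genes among which reads may be split. OLEO1, whose window is printed above, went from 3.99, 7.98 and 1.03 CPM at preglobular to 0, 0.12 and 0.16 CPM at globular, and then through 9.37, 10.5 and 20.7 CPM at late heart to 4391, 4309 and 2932 CPM at bent cotyledon and 43810, 52100 and 57860 CPM at mature green. OLEO1 rose by 3.07 ± 0.58 on the log2 scale from late torpedo to bent cotyledon (SE, edgeR adjusted p = 0.00035) and by 3.73 ± 0.60 to mature green (adjusted p = 1.90e-05), the steps at which LEC1 and LEC2 fell.

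Of 6 bZIP partners and abscisic acid response factors, 5 rose and 0 fell end to end, with a median log2 change of 4.32. The partner bZIP67, which works with L1L at storage and oil genes, rose by 9.28 on the log2 scale from 0.66 to 417 CPM, and EEL by 6.12 from 8.48 to 592 CPM. ABI5, the bZIP factor that acts with ABI3 in abscisic acid response, rose by 6.82 from 0.36 to 41.7 CPM, and bZIP10 by 2.52 from 9.62 to 55.2 CPM (edgeR adjusted p 3.17e-09 or lower for each of the 4).

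The other NF-Y subunits moved both ways, as did all genes tested, of which 38.5% rose and 37.4% fell end to end. Of 11 further NF-YB genes 8 were tested, of which 3 rose and 4 fell end to end, with a median of −0.69. The largest changes were falls, of NF-YB8 by 2.05, NF-YB2 by 2.01, NF-YB11 by 1.68 and NF-YB10 by 1.67 on the log2 scale, and all remained above 2 CPM at mature green. Of 17 NF-YA and NF-YC genes 7 rose and 8 fell, with a median of −0.58. NF-YA7 rose by 4.43 from 2.05 to 44.4 CPM, while NF-YC6 fell from 4.10 CPM to 1 count over 3 libraries, NF-YC7 from 108 counts to 0, and NF-YC1 by 1.70 on the log2 scale.

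Other factors tied to the LAFL network also moved both ways, 3 up and 4 down of 8 tested of 9, with a median of −0.60. DOG1, the dormancy gene, went from 4 counts at preglobular to 443.6 CPM at mature green, and WRI1, which drives fatty acid synthesis, rose by 2.07 from 46.6 to 195.5 CPM with 278 CPM at bent cotyledon. BBM, an AP2 factor that can induce embryos, fell by 2.17 on the log2 scale from 142 to 31.7 CPM, and the MADS-box gene AGL18 by 1.39. Of 18 Polycomb and histone deacetylase genes that include partners of the VAL proteins, 5 rose and 9 fell, with a median of −0.43. CLF, a histone methyltransferase of Polycomb complex PRC2, fell by 2.497 from 27.4 to 4.84 CPM, and the histone deacetylase gene HDA6 by 1.94 from 61.0 to 15.9 CPM. PKR2 and AT3G23060 went from 16 and 33 counts at preglobular to 0. All lists were chosen with earlier results of these data known, and their end-to-end counts are read only beside the background of 75.9% of genes called, 38.5% higher and 37.4% lower. The counts of the NF-Y, network and Polycomb lists are near that share, and nothing is read from them.

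Over the 24 stage libraries, LEC1 and LEC2 went together (Pearson r of log2(CPM + 1) 0.93), as did FUS3 and ABI3 (0.86) and VAL1 and VAL2 (0.71). LEC2 ran against FUS3 (−0.92) and ABI3 (−0.88), LEC1 and L1L had −0.49, and VAL3 ran against L1L (−0.74). These describe libraries that fall into 8 stages and share their scaling, so no p is given. The genes most like each member among 5474 with a symbol and a mean of at least 10 CPM were, for LEC1, the histone genes HTA8 (r = 0.99) and HTR12 (0.99) and the tryptophan synthase gene TSA1 (0.99). For L1L they were ACX5 (0.97), SOX (0.97) and ILR1 (0.97), and for LEC2 MAP1A (0.99), GRF7 (0.98) and TAF15b (0.98). FUS3 was most like ABIL4, FP3 and BGLU29 (0.97 to 0.98), and ABI3 most like RSH1, DRM3 and the DNA demethylase gene DML1 (0.97 each). VAL1 was most like SIK1, ALY3 and SYD (0.93 to 0.94), VAL2 most like TPR16, RGD3 and G2484-1 (0.88 to 0.89), and VAL3 most like CPK7, TAF5 and ROPGEF14 (0.90 to 0.93). On log2(TPM + 1) only 5 of these 24 genes were named again, DML1, ALY3, TPR16, RGD3 and CPK7, so the choice depends on the scale.

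Bent-cotyledon RNA at lower inputs tests how far these levels depend on the amount of RNA. No member was called by edgeR or DESeq2 from 5 ng to 1 ng, where 0% of all genes were called, to 0.5 ng (0%) or to 0.1 ng (0.205%), and at an unadjusted p under 0.05 the counts were 0, 0 and 1. The 1 was VAL1, at 10.9, 12.8 and 7.78 TPM at 0.1 ng against 15.7, 15.4 and 18.6 TPM at 5 ng (log2 −0.55 ± 0.19, SE, edgeR adjusted p = 0.323), groups that do not overlap. The p and SE in this paragraph come from fits that leave out the pairing of input libraries by replicate number. With that number as a block, no member was called either. L1L was at 639, 720.1 and 601 TPM at 5 ng and at 785, 839.6 and 529 TPM at 0.1 ng. LEC1 was at 29.3, 32.2 and 36.5 TPM at 5 ng, and at 28.3, 17.4 and 18.8 TPM at 0.1 ng, all below the 5 ng libraries. Its log2 change was −0.51 (edgeR adjusted p = 0.52), and −0.87 with a call (adjusted p = 0.0451) without 0.1 ng replicate 1. Replicate 3 at 0.1 ng held 1021484 estimated counts, against 7587832 and 7800194 in replicates 1 and 2. Its LEC1 level rests on 19 counts, and the lowest VAL1 count at 0.1 ng was 30. The low genes spread more widely, as VAL3 was at 1.53, 1.72 and 2.64 TPM at 5 ng but had 3, 50 and 0 counts at 0.1 ng. In the fit of the input libraries the 0 allows up to 2.896 CPM, below the 4.44 to 6.26 CPM of the 5 ng libraries there, and the log2 change was −0.90 ± 0.92 (SE, edgeR adjusted p = 0.833).

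The Ovation and SMARTer kits, with 1 library per input and no replicate check, gave other levels of the same genes from bent-cotyledon RNA. L1L had the highest TPM of the 8 in all 10 of these libraries, at 53.3 to 72.0 TPM with Ovation and 1074 to 1760 TPM with SMARTer, against 601 to 720.1 TPM with Smart-seq2 at 5 ng. LEC1 was at 0.843 to 1.53 TPM with Ovation, and with SMARTer at 63.5, 88.5, 76.8, 0 and 63.5 TPM from 5 down to 0.05 ng. It is thus high in 4 SMARTer libraries and listed at 0 in the 1 made from 0.1 ng. FUS3 was at 2.89 to 4.83 TPM with Ovation and 17.6 to 51.4 TPM with SMARTer, and ABI3 at 7.81 to 10.6 TPM and 11.04 to 47.8 TPM. LEC2 was listed at 0 in the SMARTer libraries of 0.5, 0.1 and 0.05 ng and the Ovation libraries of 0.1 and 0.05 ng, and VAL3 in the SMARTer libraries of 0.5, 0.1 and 0.05 ng.

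**Figure D5:**
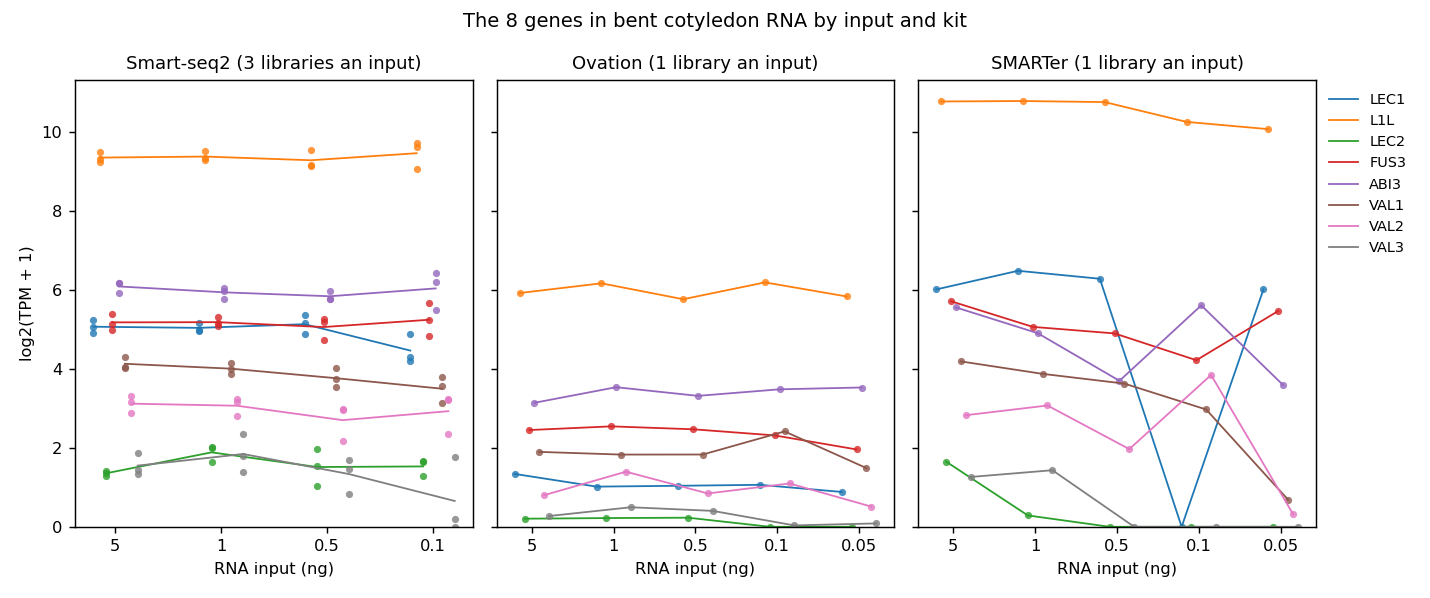
Level of the 8 genes as log2(TPM + 1) in bent-cotyledon libraries by input in ng, 1 point per library with lines through the means, for Smart-seq2 (3 libraries per input) and for Ovation and SMARTer (1 library per input). L1L is the highest gene in every library, and LEC1 lies below 1.6 TPM in all Ovation libraries.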

How the data were processed

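Embryo mRNA was measured in 43 libraries, 24 of them in the stage series, with paired-end reads of 50 bases, per the labels. The submitters' processing notes list cutadapt 1.9.1, kallisto 0.43.1 and build TAIR10. Roles, settings and strand are not given in the sources used here. The authors deposited 1 table per library over 54845 transcripts, with estimated counts, which share reads among similar transcripts by likelihood and are not scaled to depth. They also deposited TPM, which divides by effective length and has a fixed total, so it is lower for other genes where storage transcripts fill a library. Transcript length and effective length in bases are there too, per the file headers.

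Members and lists were chosen with earlier results of these data known. Values were summed per locus, and counts were rounded to whole numbers. The main test was the quasi-likelihood test of edgeR 4.0.16 with TMM factors after filterByExpr, adjusted by Benjamini-Hochberg over all genes of the stage fit (21014) or the input fit (17090). A gene was called at an adjusted p under 0.05, and SE is the absolute log2 change over the root of F. At mature green TMM factors lay between 0.553 and 0.628, elsewhere between 0.838 and 1.30. Counts outside loci were left out, up to 7.18% in a stage library and 22.7% to 25.0% in the Ovation libraries. Replicate libraries differed by more than sampling noise (chi-square per degree of freedom at least 4.07).

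All members were named, with 3 most alike genes each and, per list, up to 4 genes with the largest changes among those called end to end. Positions and windows came from RefSeq TAIR10.1, in which 53020 of 53216 nuclear transcripts and all 13 member transcripts have the length of the tables. Replicate numbers pair the input libraries, since the labels tie a number to 1 RNA (residual correlation 0.19 on average, lowest 0.05).

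Alternatives were RLE size factors, DESeq2 1.42.0, no filter, 5 CPM in 3 libraries, limma 3.58.1 on log2(TPM + 1) or log2(TPM + 0.1), the replicate number as a block, storage and oil body genes left out, fits to the compared groups alone, 1 ng in place of 5 ng at bent cotyledon, and leaving out 1 replicate at a time. The test was tried on simulated data first. R was 4.3.3 and Python 3.11.15, with numpy 2.4.6, pandas 2.3.3, scipy 1.17.1 and matplotlib 3.10.9.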

Additional observations from a re-analysis of the deposited data

How the results depend on the processing

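Of 34 gene comparisons called among 104, 23 kept their call and direction under every setting and 11 did not, and these are named in the report or here. The count of members called was 6 and 5 in place of 3 from preglobular to globular under limma on log2(TPM + 1) and log2(TPM + 0.1), 7 and 6 in place of 2 from late heart to early torpedo, 7 and 7 in place of 5 from preglobular to late heart, 6 and 6 in place of 4 from bent cotyledon to mature green, where VAL1, VAL2 and VAL3 were called lower and FUS3 was not called, and 4 and 4 in place of 7 from late heart to bent cotyledon, where FUS3, ABI3 and VAL1 (0.32, 0.40 and 0.35 on log2(TPM + 1)) lost their call. Relative to the median gene, FUS3, ABI3 and VAL1 were at 0.71, 0.79 and 0.73 on log2(TPM + 1) from late heart to bent cotyledon. The median gene moved by −0.385 there and by −0.541 on log2(TPM + 0.1), so values relative to it depend on the value added. From globular to early heart, 1 became 3 with DESeq2, 4 and 3 with limma, 2 with storage and oil body genes left out, 4 with only the groups compared, and 0 to 2 with 1 library left out. From early to late torpedo, 0 became 1, LEC1, with DESeq2, with no filter, with 5 CPM in 3 libraries, with limma on log2(TPM + 1) and with storage and oil body genes left out, and 0 to 1 with 1 library left out. From late torpedo to bent cotyledon the other settings gave 4 to 6 in place of 5, from bent cotyledon to mature green 4 to 6 in place of 4, from preglobular to late heart 4 to 7 in place of 5, and from preglobular to mature green 6 to 7 in place of 7. Leaving out 1 library gave 0 to 1 from 5 to 0.1 ng, 3 from preglobular to globular, 0 from early to late heart, 2 to 3 from late heart to early torpedo, 5 from late torpedo to bent cotyledon, 4 from bent cotyledon to mature green, 4 to 5 from preglobular to late heart, 7 from late heart to bent cotyledon, 6 to 7 from preglobular to mature green and 7 to 8 over any stage.

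Among values called on at least 1 of the scales compared, signs turned in 3 cases, all in TPM: LEC1 from preglobular to globular at 0.38 (log2(TPM + 1), adjusted p = 0.0155), and FUS3 from bent cotyledon to mature green at −0.13 on both. Values called on neither scale turned as well, such as ABI3 at that step (−0.38) and VAL1 and VAL2 from preglobular to globular (0.37 and 0.27 on log2(TPM + 1)). With the replicate block, 7 of 8 were called over any stage and VAL2 was not (adjusted p = 0.0533). The block changed no other count of calls, inputs included. Stage libraries share only a number, with a residual correlation of −0.02 on average (lowest −0.58), and 5 of 24 correlated best with their own number. VAL3 from late heart to bent cotyledon was −0.43 and not called with the 1 ng libraries (adjusted p = 0.211), and −0.73 with only the groups compared from preglobular to mature green (adjusted p = 0.0741). Depth limits LEC1 and LEC2 at mature green, which rest on 5 and 4 counts, and the low genes at 0.1 ng. The cause of each change was not tested. The limma fits on TPM kept all libraries. TPM sums and shares were also averaged without early torpedo replicate 2 or mature green replicate 3, a choice made after seeing the data. Leaving out 1 of 3 libraries cannot move a mean by as much as their SD, so the size of these moves decides nothing.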
